A study of Mus musculus with 29 samples.

Results

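The genes that encode collagen chains were followed through a mouse bladder RNA-seq series on Pparg, a nuclear receptor that drives urothelial differentiation. The members were chosen by name: every gene whose symbol is Col, a number, a and a number, without Col17a1, which encodes a hemidesmosome protein of epithelial cells. This gave 43 of the 35199 genes listed in each table, and 39 of them passed the filter on low values in at least 1 of the 4 main comparisons. Of the 29 libraries, 21 were used here.

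The sorted cells came from urothelium 4 days after tamoxifen, which was given to mice of 8 to 12 weeks. The 5 mutants, labelled K5VP16;Pparg+/-, expressed a fusion of the VP16 activator with Pparg from a CAG-driven cassette in Rosa26 once Krt5CreERT2 had removed a stop signal, and the 4 controls were labelled wild type. Both groups were untreated with carcinogen, and in the study's methods both carried Cre and a reporter. The GFP-positive cells collected were thus meant to be recombined Krt5 basal cells and their descendants. By the same methods the mutant cassette also held an EGFP of its own, so the source of GFP differed between the groups. The tumor libraries were laser-captured from frozen bladders of mice given BBN, a bladder carcinogen, at 0.05% in the drinking water. By the study's methods these mice received tamoxifen in the bladder, guided by ultrasound, at 8 to 12 weeks of age and after 1 month of BBN, and the tumors were studied 4 months after tamoxifen. There were 3 basal tumors from mice labelled wild type, and from K5VP16;Pparg+/- mice 3 luminal tumors, 3 luminal domains at the top of mixed lesions and 3 basal-like domains at the bottom of such lesions. All of these carry the label 5M for the months of BBN, and 4M in their titles matches the months after tamoxifen. Laser capture takes in whatever lies in the outlined area, and the labels do not tie captured areas to animals, so some areas may share a mouse and p-values measure only the spread between these samples. Libraries are named below by the order of their columns in the tables, which carries no other meaning.

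Collagens are trimers wound into a triple helix, which needs glycine in each Gly-X-Y triplet. Fibrillar collagens (types I, II, III, V, XI, XXIV and XXVII) assemble into the fibrils of stroma, type IV forms the network of basement membranes, type VI forms beaded filaments around cells, and type VII anchors epithelia to the stroma beneath. In the bladder wall the fibrillar and type VI chains are made mostly by fibroblasts and smooth muscle, whereas epithelial cells contribute to the basement membrane that they rest on.

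The coding sequence shows what the members share beyond their names. In the GENCODE M21 annotation of GRCm38, the longest stretch of codons with GGN, a glycine codon, at the head of each triplet ran to 216 to 344 triplets in the 11 fibrillar genes. It ran to 39 to 66 triplets in the 6 type IV genes, 37 to 87 in the 6 type VI genes and 23 to 113 in the remaining classes. Fibrillar genes held 21 to 33 coding exons of exactly 54 bases, and type IV genes 1 to 3. An exon of 54 bases with GGN at all 6 places was found in 39 of the 43 genes. The first such exon is shown for 4 genes on which the results turn, 5′ to 3′ in the direction of transcription. Capitals mark the GGN codon at the head of each triplet, and GGN at other places is left in lower case.
Col1a1, exon 8 of 51, chr11:94939904-94939957, plus strand: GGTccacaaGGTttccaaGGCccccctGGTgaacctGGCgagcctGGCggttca
Col12a1, exon 55 of 66, chr9:79614349-79614402, minus strand: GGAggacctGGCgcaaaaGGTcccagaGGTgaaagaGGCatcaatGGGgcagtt
Col6a1, exon 9 of 35, chr10:76719623-76719676, minus strand: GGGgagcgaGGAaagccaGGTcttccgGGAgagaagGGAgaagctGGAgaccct
Col4a5, exon 8 of 54, chrX:141575988-141576041, plus strand: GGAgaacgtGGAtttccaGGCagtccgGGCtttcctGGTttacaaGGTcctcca

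Promoters are shown for 8 of the 11 genes that passed the test in a comparison, since the genes called in a comparison moved in 1 direction. RefSeq windows on GRCm38.p6 matched 34 of the 43 genes, and none matched Col1a1, Col5a2 or Col12a1. The 120 bases before the start are printed 5′ to 3′, and capitals mark 3 short motifs on either strand: the CCAAT box, the GC box spelled GGGCGG, and the TATA box spelled TATAAA. Matches of the GC box may overlap each other. The first 4 windows belong to the genes that rose at 4 days, with 2 starts for Col6a2. The other 5 belong to genes that fell in luminal tumors.
Col6a1, chr10:76726045-76726164, minus strand: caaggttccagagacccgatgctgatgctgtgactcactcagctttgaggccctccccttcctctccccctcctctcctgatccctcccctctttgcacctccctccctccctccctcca
Col6a2, chr10:76623405-76623524, minus strand: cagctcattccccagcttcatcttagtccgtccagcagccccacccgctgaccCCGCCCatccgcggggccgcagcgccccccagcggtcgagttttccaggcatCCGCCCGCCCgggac
Col6a2, chr10:76623631-76623750, minus strand: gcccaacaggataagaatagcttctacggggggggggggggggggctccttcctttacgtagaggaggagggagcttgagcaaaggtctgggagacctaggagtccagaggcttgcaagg
Col5a3, chr9:20815068-20815187, minus strand: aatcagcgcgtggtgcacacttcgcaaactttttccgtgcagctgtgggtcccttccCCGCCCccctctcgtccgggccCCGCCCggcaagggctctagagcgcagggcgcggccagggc
Col1a2, chr6:4505498-4505617, plus strand: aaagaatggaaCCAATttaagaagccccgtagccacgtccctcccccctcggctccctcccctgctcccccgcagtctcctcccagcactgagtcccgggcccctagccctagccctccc
Col5a1, chr2:27886305-27886424, plus strand: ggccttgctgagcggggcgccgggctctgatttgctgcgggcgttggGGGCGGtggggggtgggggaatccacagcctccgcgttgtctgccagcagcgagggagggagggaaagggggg
Col11a1, chr3:114030420-114030539, plus strand: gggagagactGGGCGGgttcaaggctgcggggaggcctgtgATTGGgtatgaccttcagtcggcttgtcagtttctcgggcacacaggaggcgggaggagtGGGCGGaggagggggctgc
Col27a1, chr4:63215292-63215411, plus strand: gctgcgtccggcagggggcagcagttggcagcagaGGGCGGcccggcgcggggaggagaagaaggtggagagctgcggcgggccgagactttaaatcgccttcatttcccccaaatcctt
Col8a1, chr16:57754738-57754857, minus strand: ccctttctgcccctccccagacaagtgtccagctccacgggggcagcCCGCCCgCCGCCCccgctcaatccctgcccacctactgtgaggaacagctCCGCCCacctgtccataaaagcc

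Over the whole 250 bases before the start, GGGCGG or its reverse complement was present in 59.5% of 37 collagen windows and in 32.7% of all 32851 windows in the table. CCAAT was present in 32.4% and 33.8%, and TATAAA in 10.8% and 12.4%. Col6a1 and Col3a1 held no GGGCGG in these 250 bases. A match is only a run of letters, and its absence says nothing of any factor.

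The values are the deposited normalized counts, which allow a gene to be compared between libraries of 1 table but not with another gene, whose length differs. A fold change is the difference of mean log2(normalized count + 1), and called means an adjusted p under 0.05 in limma over all genes tested. The summed normalized counts were 36520193 to 53904714 per library; depth in reads is unknown. In the 4-day table, Y-linked genes were high in 3 controls and low in the first control and all 5 mutants, so within that comparison the groups also differ in this respect.

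The first question was whether activating Pparg in Krt5 cells changed collagen expression within 4 days. The type VI genes Col6a1 and Col6a2 and the fibrillar gene Col5a3 rose in the mutants, by 2.66 to 4.16 on the log2 scale. The type IV genes Col4a5 and Col4a6 and the multiplexin Col18a1 had differences of -0.23 to 0.32. Of 34 members tested, 3 rose and none fell, against 2.85% of 16413 genes called, 1.77% higher and 1.08% lower. The fold change was positive for 26 of the 34, with a median of 1.04, beside a median of 0.0045 over all genes. In 5 of the 34 every mutant library lay above every control, and in none below, beside 4.67% and 4.51% of all genes. Collagen genes made up 0.101% to 0.198% of the normalized counts in the controls and 0.163% to 0.482% in the mutants.

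Type VI genes were 2 of the 3 called. Col6a1 and Col6a2, which encode the α1 and α2 chains of the beaded filament, lie on the same strand of chromosome 10, at chr10:76708792-76726168 and chr10:76595762-76623630, 85161 bases apart. Col6a1 was at 981, 1236, 2342 and 3699 in the controls and at 9828, 5365, 18809, 22748 and 10122 in the mutants. The lowest mutant, the second, was still above the highest control, the fourth. The difference was 2.71 ± 0.48 (SE, n = 4 and 5) on the log2 scale, with an adjusted p of 0.0211 in limma. Col6a2 was at 783, 694, 1929 and 2128 in the controls and at 5982, 4229, 11481, 12704 and 7400 in the mutants. It rose by 2.66 ± 0.42, with an adjusted p of 0.0146, and the mutants stood in the same order as for Col6a1.

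Col6a3, the α3 chain with which these 2 chains assemble, was at 56.2, 27.6, 146 and 155 in the controls and at 224, 330, 1294, 965 and 386 in the mutants. Its groups did not overlap either, but its difference of 2.72 ± 0.64 had an adjusted p of 0.0542. Per kilobase of coding sequence, Col6a3 was at 0.00698 to 0.0215 times the level of Col6a1 in these 9 libraries, while Col6a2 was at 0.554 to 0.816 times. These ratios allow for coding length only, and the correction of the deposited values also differs between genes. They do not settle how the level of Col6a3 stands beside its partners. The alternative α chains Col6a4, Col6a5 and Col6a6 had differences of 1.64, 1.35 and 1.63 with overlapping groups and adjusted p-values of 0.355, 0.464 and 0.136. Col6a5 was at 75.0 in the first mutant and at 866 to 2138 in the other mutants.

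Among the fibrillar genes, 1 of 10 tested rose. Col5a3, at chr9:20770050-20815067, encodes a minor chain of type V collagen, which is built into type I fibrils. It was at 29.4, 8.28, 54.7 and 11.6 in the controls and at 145, 78.6, 1599, 416 and 988 in the mutants. Every mutant was above every control, and the mutants themselves spread over a wide range. The difference was 4.16 ± 0.90, with an adjusted p of 0.0409.

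The major fibrillar chains did not pass the test. Col1a1, the α1 chain of type I collagen, was at 883, 1266, 2344 and 2164 in the controls and at 4314, 2206, 16285, 7968 and 8335 in the mutants. The second mutant fell among the controls and the other mutants lay above them. The difference was 2.04 ± 0.53, with an adjusted p of 0.0688. Col1a2, its α2 partner, was at 1429, 2058, 4968 and 5932 in the controls and at 10729, 4420, 30581, 13373 and 13804 in the mutants. The second mutant again overlapped, and the difference of 2.0 ± 0.56 had an adjusted p of 0.0856. Per kilobase of coding sequence, Col1a2 was at 1.71 to 2.90 times the level of Col1a1 in the 9 libraries, although Col1a1 itself ranged 18.4-fold.

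Col3a1, the homotrimeric chain of type III collagen, was at 3425, 10296, 14364 and 25851 in the controls and at 29470, 10836, 53544, 34662 and 24840 in the mutants. The second and the fifth mutant overlapped the controls, and the difference was 1.34 ± 0.58 with an adjusted p of 0.224. Col5a1 and Col5a2 are the major type V chains that set fibril diameter. Col5a1 was at 156, 104, 263 and 576 in the controls and at 864, 263, 2647, 1294 and 929 in the mutants, a difference of 2.07 ± 0.65 with an adjusted p of 0.111. Col5a2 was at 125, 493, 704 and 1560 in the controls and at 2427, 461, 3884, 2779 and 1244 in the mutants, a difference of 1.75 ± 0.76 with an adjusted p of 0.227. In both genes the second mutant lay among the controls, and for Col5a2 the fifth did too. The cartilage chain Col2a1 was at 0 to 29.0 in the controls and 1.81 to 65.8 in the mutants, Col11a2 had a difference of -0.31, and Col11a1 was under 10 in all 9 libraries. Col24a1 and Col27a1 had differences of 0.45 and 0.03.

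**Figure D1:**
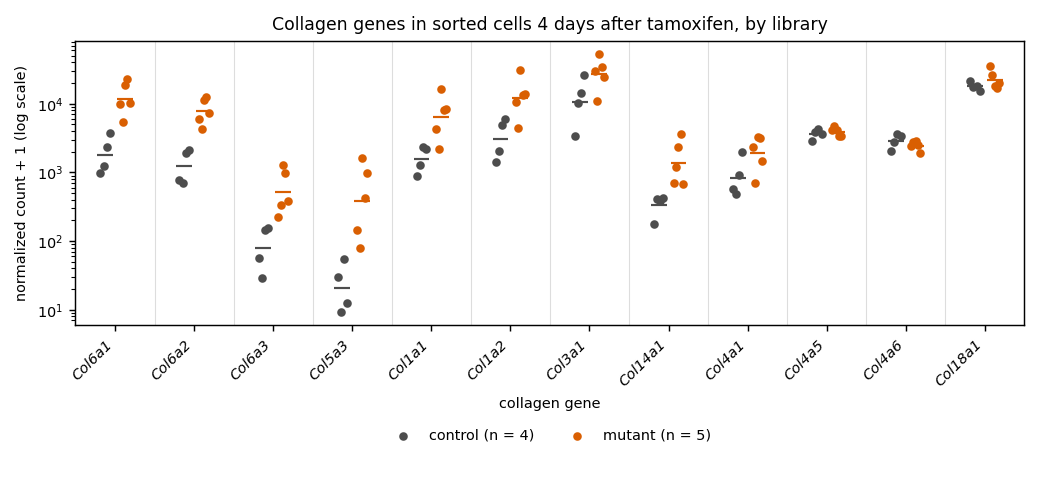
Normalized counts plus 1 (log scale) of 12 collagen genes in each library of sorted cells 4 days after tamoxifen. Points are libraries of 4 controls and 5 mutants, and bars are means on the log scale. All mutants lie above all controls for Col6a1, Col6a2, Col6a3, Col5a3 and Col14a1, and the groups overlap for Col4a5, Col4a6 and Col18a1.

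The FACIT collagens lie on the surface of fibrils. Col14a1, one of them, was at 179, 411, 387 and 428 in the controls and at 691, 1204, 2359, 3675 and 668 in the mutants. All mutants were above all controls, but the difference of 2.04 ± 0.52 had an adjusted p of 0.066. Col12a1 and Col16a1 had differences of 0.92 and 1.16, Col20a1 of -0.73, and none of these passed (adjusted p-values of 0.341, 0.461 and 0.315). Col8a2, a short-chain collagen of the kind found in the layer under endothelia, had a difference of 1.53 and an adjusted p of 0.186.

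The basement membrane chains of type IV did not pass either. They are encoded as head-to-head pairs, and in the annotation Col4a1 and Col4a2 overlap by 22 bases on chromosome 8, while Col4a5 and Col4a6 lie 1308 bases apart on chromosome X. None of the 6 was called, 3 differences were positive and 3 negative, and their median was -0.066. Col4a5 was at 2887 to 4292 in the controls and 3353 to 4703 in the mutants. Its difference was 0.10 ± 0.14, the smallest error of any member, with a 95% interval of -0.21 to 0.41. Col4a6 was at 2075 to 3602 in the controls and 1898 to 2859 in the mutants, a difference of -0.23 ± 0.18. Col4a1 and Col4a2 are the chains found in nearly all basement membranes. Col4a1 was at 579, 479, 914 and 1958 in the controls and at 2319, 693, 3273, 3214 and 1445 in the mutants, a difference of 1.17 ± 0.52 with an adjusted p of 0.238. Col4a2 was at 526, 547, 756 and 1174 in the controls and at 2045, 504, 1979, 1600 and 834 in the mutants, a difference of 0.78 ± 0.43 with an adjusted p of 0.337. The groups of both overlapped. Col4a3 and Col4a4, at 41.3 to 141 and 35.4 to 692 over all 9 libraries, had differences of -0.66 and -0.43.

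Col18a1, a basement membrane multiplexin from which endostatin is cut, had the highest mean level per kilobase of coding sequence among the members in the controls, 3389 against 3070 for Col3a1. The order rested on the mean, since Col3a1 ran from 780 to 5886 per kilobase in single controls and Col18a1 from 2861 to 4034. It also rested on values whose correction differs between genes, so it is not a firm ranking. The normalized count of Col18a1 was at 21472, 17536, 17913 and 15226 in the controls and at 35073, 25830, 17964, 16694 and 20343 in the mutants. The groups overlapped, and the difference of 0.32 ± 0.21 had an adjusted p of 0.435. Col7a1, which forms the anchoring fibrils under basal cells, was at 136 to 229 in the controls and 104 to 293 in the mutants, a difference of -0.12 ± 0.30. Col15a1, the other multiplexin, was at 0 to 5.84 in the controls and 6.64 to 32.8 in the mutants and did not pass the filter. The transmembrane chains Col23a1 and Col25a1 had differences of 0.52 and -0.15. Col26a1, an EMI-domain collagen, had a difference of -0.84, and the rest of the members tested, Col9a3 and Col22a1, had 0.45 and 0.92.

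The collagen difference stood beside markers of other cells. The 8 fibroblast markers (Pdgfra, Pdgfrb, Dcn, Lum, Fap, Thy1, Postn and Vim) summed to 6886 to 56272 in the controls, with at most 1 of them at 0, and to 14729 to 130498 in the mutants, with none at 0. Of these, Lum was called and rose by 2.70 on the log2 scale. Summed smooth muscle markers were at 174 to 1042 and 410 to 2719, and endothelial markers at 257 to 1137 and 267 to 1301. Pericyte markers (Rgs5, Cspg4 and Notch3) summed to 2026 to 3213 and 2411 to 4042. The gate on GFP is meant to leave such cells out. The basal urothelial markers (Krt5, Krt14, Trp63 and Cd44) summed to 128251 to 149309 in the controls and to less in every mutant, 89507 to 127931. Of these 4, Cd44, a hyaluronan receptor, rose by 0.76, while Krt5, Trp63 and Krt14 had differences of -0.30, -0.75 and 1.89 that did not pass. Luminal urothelial markers (Upk1a, Upk1b, Upk2, Upk3a, Krt18 and Krt20) summed to 192457 to 368276 in the controls and 234544 to 472441 in the mutants, with 6 of 6 differences positive and Krt20 called, a rise of 1.83. General epithelial markers (Cdh1, Epcam and Krt8) summed to 71685 to 98366 and 78943 to 189399. Of these, Epcam fell by 0.72, while Cdh1 and Krt8 had differences of 0.28 and 0.84 that did not pass. Differences were positive for 6 of 7 fibroblast markers tested, with a median of 2.06, and for 6 of 6 smooth muscle markers, with a median of 1.75. The third and the fourth mutant had the highest fibroblast sums, 130498 and 80622, and also the highest Col6a1. The fifth mutant had a fibroblast sum of 23582, under the 56272 of the fourth control, and its Col6a1 was 10122 against 3699 there. The second mutant, at 14729, was also under the third and the fourth control for the sum and above both for Col6a1 and Col6a2. The part of these cells in the collagen difference was not tested, and in bulk samples more cells of a type and more RNA per cell cannot be told apart.

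Of the lists of genes that process or bind collagen, 4 held 1 called gene each, beside 2.85% of all genes called. In the list for hydroxylation and glycosylation of the chains, 1 of 13 tested rose, P4hb, the β subunit of prolyl 4-hydroxylase and a general disulfide isomerase. It was at 23787 to 25186 in the controls and 35442 to 49870 in the mutants, a difference of 0.72 ± 0.12 with an adjusted p of 0.0184. Of the 5 lysyl oxidases, which cross-link fibrils, Lox rose, from 39.2 to 71.9 in the controls to 149 to 1447 in the mutants, a difference of 2.90 ± 0.58 with an adjusted p of 0.031. Of 9 collagen receptors, Itga1, the α1 integrin chain, rose, from 152 to 220 in the controls to 334 to 674 in the mutants, a difference of 1.31 ± 0.22 with an adjusted p of 0.0189. Of 4 fibril-binding proteoglycans, only Lum passed. None of the 5 folding and export genes or the 7 propeptide-cleaving genes tested passed, although Serpinh1, the collagen chaperone, was at 563 to 2853 in the controls and 3278 to 11368 in the mutants.

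The number called depended on single libraries. Without the second mutant 6 members rose, and without the second or the third control 1 did, while the count over all genes moved from 467 to between 129 and 596 in these 9 fits. Col6a2 was called in all 9, Col6a1 in 7 and Col5a3 in 2. In the study's smaller 4-day table of 3 against 3 libraries none of 32 members tested was called, beside 147 of 16085 genes. With a term for the split in Y-linked genes, chosen after seeing the data, the fit compares the mutants with the first control, and 0 of the 34 members and 26 of all 16413 genes were called, while 28 of the 34 differences were positive, with a median of 1.62. The difference for Col6a1 was then 3.59 ± 0.74, with an adjusted p of 0.184.

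**Figure D2:**
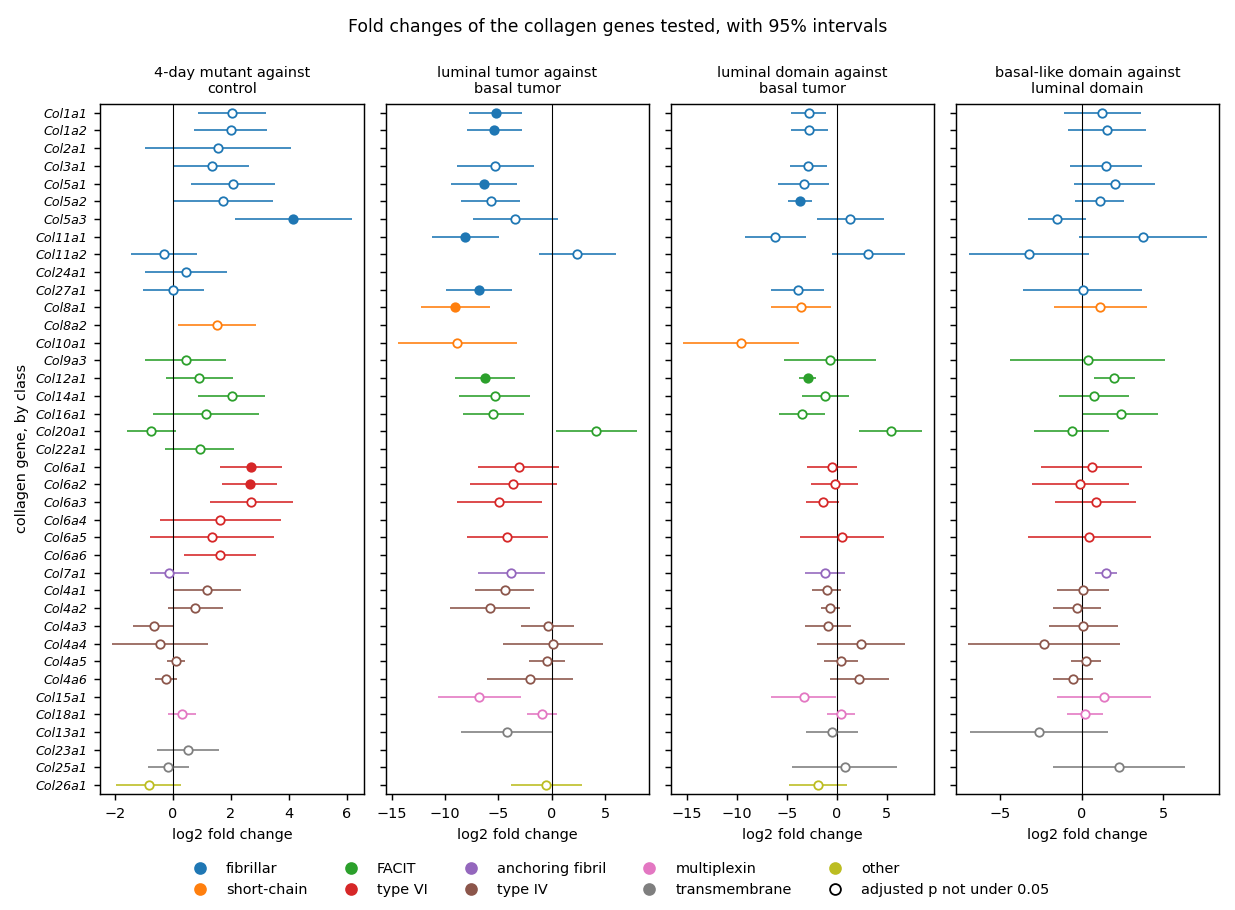
Log2 fold change (x axis) of every collagen gene tested (y axis, coloured by class) in the 4 comparisons, with 95% confidence intervals from limma; filled points have an adjusted p under 0.05. Called genes lie right of 0 at 4 days (3 genes) and left of 0 in luminal tumors (7 genes) and luminal domains (2 genes), and none is filled for basal-like against luminal domains. The middle panels share the basal tumors, and the last panels the luminal domains.

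The second question was how luminal tumors, formed when Pparg was activated, differed from basal tumors. Col1a1, Col1a2, Col5a1, Col11a1, Col27a1, Col8a1 and Col12a1 fell in luminal tumors, with differences of -9.02 to -5.26 on the log2 scale. Of 30 members tested, 7 fell and none rose, against 2.2% of 15357 genes called, 0.938% lower and 1.26% higher. Differences were negative for 27 of the 30 and their median was -4.66, beside -0.11 over all genes. In 15 of the 30 every luminal tumor lay below every basal tumor, and in none above, beside 11.6% and 9.98% of all genes. By class, 5 of 9 fibrillar genes fell, 1 of 2 short-chain genes and 1 of 4 FACIT genes, and none of the 15 others. These counts include Col11a1, Col27a1 and Col8a1, which were under 10 in every luminal tumor and needed the basal tumors to meet the filter. Col10a1 and Col6a5, not called, were also under 10 in every luminal tumor, and Col20a1 in every basal tumor. The direction and separation of such members were thus partly set by the filter on low values, and they enter the signs, the median and the groups apart. Without that filter 1 of the 7, Col8a1, was called. The fit also held 2 luminal domains, which share the estimate of the spread.

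Type I collagen was low in 2 of the luminal tumors and intermediate in the third. Col1a1 was at 7759, 6656 and 9097 in the basal tumors and at 157, 36.3 and 1406 in the luminal tumors. The third luminal tumor was nearest to the basal tumors and did not reach them. The difference was -5.26 ± 1.10 (SE, n = 3 and 3), with an adjusted p of 0.0464 in limma. Col1a2 was at 22670, 11212 and 12530 in the basal tumors and at 295, 59.6 and 2433 in the luminal tumors. Its difference was -5.38 ± 1.14, with an adjusted p of 0.0472, and the same luminal tumor was highest. Over the 8 libraries of this table Col1a1 ranged 250-fold, and the ratio of Col1a2 to Col1a1 per kilobase of coding sequence stayed within 1.46 to 3.09.

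Of the type V and type XI chains, which nucleate and regulate fibrils, Col5a1 and Col11a1 fell, and Col5a2, Col5a3 and Col11a2 did not pass. Col5a1 was at 3067, 693 and 5668 in the basal tumors and at 8.51, 7.63 and 273 in the luminal tumors, a difference of -6.35 ± 1.36 with an adjusted p of 0.0494. Col5a2 was at 9592, 3669 and 9534 against 149, 15.2 and 942, and its difference of -5.72 ± 1.24 had an adjusted p of 0.0501, just outside the threshold. For both genes the groups were apart. Col11a1, at chr3:114030540-114220718, was at 478, 522 and 227 in the basal tumors and at 0, 0 and 1.79 in the luminal tumors. Its difference was -8.10 ± 1.39, with an adjusted p of 0.0304. Col27a1, a fibrillar chain with a shorter helix, was at 206, 343 and 192 against 0, 0 and 9.32, a difference of -6.78 ± 1.37 with an adjusted p of 0.0419. These 2 genes were thus close to 0 in the luminal tumors and present in each basal tumor. They met the filter on low values through the basal tumors, and neither was called without that filter.

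Col3a1 did not pass. It was at 24787, 8619 and 37016 in the basal tumors and at 182, 67.8 and 10590 in the luminal tumors, so the third luminal tumor lay above the second basal tumor. The difference was -5.29 ± 1.60, with an adjusted p of 0.128. Col5a3 was at 181, 10.3 and 587 against 2.32, 3.53 and 65.0, with a difference of -3.42 and an adjusted p of 0.346. Col11a2 was the fibrillar gene with a positive difference, 2.42, from 0 to 28.7 in the basal tumors and 16.5 to 128 in the luminal tumors, with an adjusted p of 0.458.

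The largest called difference belonged to a short-chain collagen. Col8a1, at chr16:57624258-57754737, encodes a chain of the hexagonal lattices made by vascular and some stromal cells. It was at 5702, 1684 and 750 in the basal tumors and at 4.64, 3.53 and 1.03 in the luminal tumors. All luminal tumors were far below all basal tumors, with a difference of -9.02 ± 1.42 and an adjusted p of 0.0274. Col10a1, the related chain of hypertrophic cartilage, was at 38569, 14.9 and 1331 in the basal tumors and at 0, 0 and 7.26 in the luminal tumors. The first basal tumor alone made its mean high, and the difference of -8.85 ± 2.49 had an adjusted p of 0.108.

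Col12a1, a long FACIT at chr9:79598991-79718831, was at 4093, 2909 and 4346 in the basal tumors and at 27.1, 7.16 and 490 in the luminal tumors. It fell by 6.27 ± 1.26, with an adjusted p of 0.0419, and its basal tumors were close to each other. Col14a1 was at 173, 233 and 63.4 against 0.740, 0 and 21.8, and Col16a1 at 656, 226 and 1372 against 38.8, 3.57 and 11.9. Both had groups apart and adjusted p-values of 0.104 and 0.0616. Col20a1 was higher in luminal tumors in sign only, at 6.71, 0 and 0 against 316, 22.2 and 5.41, with an adjusted p of 0.229.

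**Figure D3:**
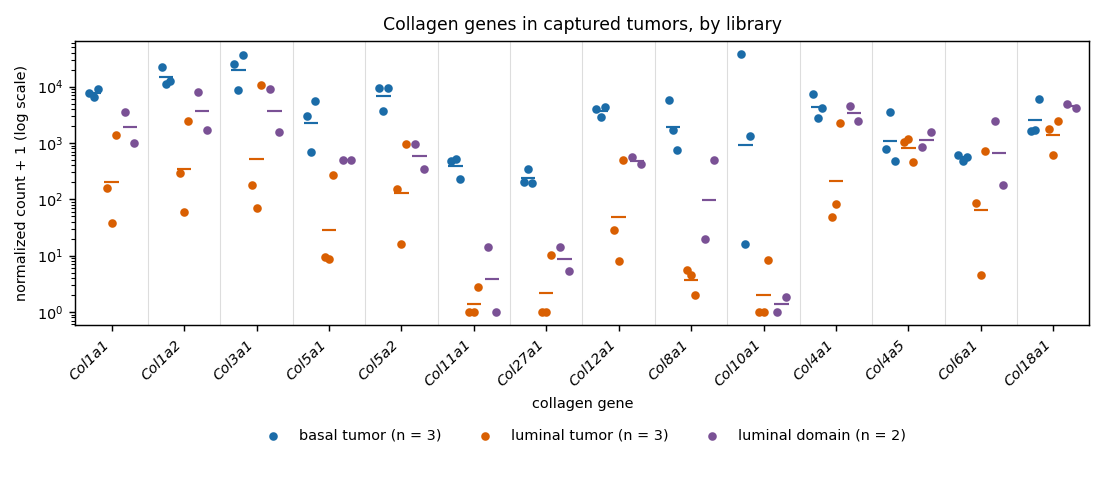
Normalized counts plus 1 (log scale) of 14 collagen genes in captured tumors, with 3 basal tumors, 3 luminal tumors and the 2 luminal domains of the same table as points and log-scale means as bars. Luminal tumors lie below basal tumors for Col1a1, Col1a2, Col5a1, Col5a2, Col11a1, Col27a1, Col12a1 and Col8a1, with 1 luminal tumor higher than the others for most of these, while Col4a5 and Col18a1 overlap.

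The type VI genes did not pass. Col6a1 was at 619, 485 and 571 in the basal tumors and at 83.5, 3.52 and 732 in the luminal tumors, and Col6a2 at 256, 381 and 759 against 16.4, 2.38 and 735. The third luminal tumor was as high as the basal tumors in each case, and the adjusted p-values were 0.369 and 0.333. Col6a3 was at 1606, 685 and 3403 against 28.3, 2.76 and 1238, with an adjusted p of 0.189. Col6a5 was at 10.0, 150 and 137 against 5.20, 2.11 and 1.07, with an adjusted p of 0.232.

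None of the 6 type IV genes passed, and differences between the pairs were not tested. Col4a1 was at 7515, 2724 and 4231 in the basal tumors and at 47.2, 81.3 and 2307 in the luminal tumors, and Col4a2 at 3022, 2119 and 3126 against 6.88, 9.30 and 1443. The groups of both were apart, and the differences of -4.40 ± 1.23 and -5.79 ± 1.67 had adjusted p-values of 0.105 and 0.114. Col4a5 was at 775, 3591 and 471 against 1045, 1159 and 467, a difference of -0.40 ± 0.76. Col4a6 was at 30.0, 1384 and 146 against 458, 36.3 and 4.11, a difference of -2.06 ± 1.80. Col4a3 and Col4a4 had differences of -0.39 and 0.13.

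Col18a1 was at 1632, 1707 and 5980 in the basal tumors and at 1744, 612 and 2503 in the luminal tumors, and its difference of -0.88 ± 0.63 had an adjusted p of 0.501. Col15a1 was at 1722, 204 and 187 against 0, 1.23 and 22.3, with groups apart and an adjusted p of 0.08. Col7a1 was at 466, 1183 and 6968 in the basal tumors against 936, 18.1 and 84.1, with an adjusted p of 0.196. Col13a1, a transmembrane chain, had a difference of -4.18 and Col26a1 of -0.52, neither called.

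Several markers of other cells fell in the luminal tumors: the fibroblast markers Pdgfrb, Thy1 and Postn, the smooth muscle markers Acta2, Cnn1 and Tagln, the endothelial marker Cldn5 and the pericyte marker Cspg4. The 8 fibroblast markers summed to 27411, 27103 and 21408 in the basal tumors and to 415, 92.3 and 5121 in the luminal tumors, with at most 2 at 0. The 6 smooth muscle markers (these 3 with Myh11, Des and Actg2) summed to 6010 to 51208 against 150 to 1254, immune markers (Ptprc, Cd3e, Cd68, Lyz2 and Itgam) to 24434 to 131769 against 683 to 8686, and endothelial markers (Cldn5, Pecam1, Cdh5, Kdr and Tek) to 1308 to 2616 against 373 to 1053. Pericyte markers went the other way in part, with sums of 3422, 2085 and 3549 in the basal tumors against 4076, 10587 and 3145 in the luminal tumors. Of these, Rgs5 was higher in every luminal tumor, with a difference of 1.79 and an adjusted p of 0.103. The basal urothelial markers summed to 276590 to 643759 against 13273 to 198913, and the uroplakin genes Upk1a, Upk2 and Upk3a and the keratin gene Krt8 rose. The third luminal tumor, highest for collagen at 0.051% of normalized counts against 0.011% and 0.00435%, was also highest for the fibroblast sum. In the basal tumors the collagen share was 0.124% to 0.317%. The part of captured stroma in the collagen difference was not tested, and fewer stromal cells and less collagen RNA per cell cannot be told apart.

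**Figure D4:**
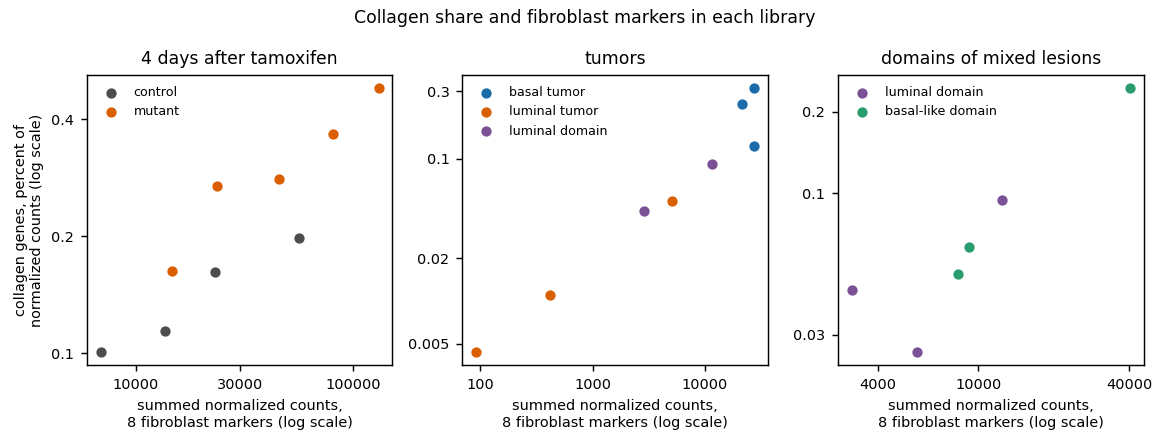
Share of normalized counts from collagen genes (y axis, percent, log scale) against the summed normalized counts of 8 fibroblast markers (x axis, log scale), 1 point per library, in the 4-day, tumor and mixed-lesion tables. Each panel is 1 table with its own scale. In the tumor panel collagen runs from 0.00435% in the luminal tumor with the fewest fibroblast marker counts, 92.3, to 0.317% in the basal tumor with the most, 27411, and the highest point of the 4-day panel is a mutant at 0.482% and 130498.

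Among genes of collagen processing, 4 fell, beside 2.2% of all genes called and 0.938% lower. Of 6 propeptide-cleaving genes tested, 2 fell. Bmp1, the C-proteinase of procollagen, was at 1959, 1256 and 3320 in the basal tumors and at 88.0, 195 and 433 in the luminal tumors, with a difference of -3.36 ± 0.71 and an adjusted p of 0.0474. Adamts14, an N-proteinase, was at 52.6, 68.5 and 71.2 in the basal tumors and listed at 0 in all luminal tumors, with an adjusted p of 0.0403. Like Col11a1 and Col27a1, Adamts14 met the filter on low values through the basal tumors. Lox, 1 of 5 cross-linking genes, was at 3226, 570 and 342 against 10.1, 2.27 and 1.26 and fell by 7.63 ± 1.47, with an adjusted p of 0.0373. Bgn, 1 of 3 fibril-binding proteoglycans, was at 6481, 4097 and 3855 against 70.3, 10.0 and 438 and fell by 6.06 ± 1.16, with an adjusted p of 0.0364. None of 14 hydroxylation and glycosylation genes, 5 folding genes or 7 receptors tested passed.

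The count of 7 rested on few libraries and on the filter. Without the filter on low values Col8a1 was the member called, and the count over all genes was 52 in place of 338. Without the third luminal tumor 16 members were called, all lower, and the 7 were among them. Without the first or the third basal tumor, or the first or the second luminal tumor, none was called, and without the second basal tumor the call was Col10a1, which is not among the 7. The count over all genes moved likewise, from 3 to 813 in these 6 fits, with 813 in the fit without the third luminal tumor. The median over the members lay between -5.14 and -3.08 in these 6 fits.

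The third question concerned mixed lesions, whose luminal domains were compared with the same basal tumors. Col12a1 and Col5a2 fell in luminal domains, by 2.95 and 3.70 on the log2 scale. Of 32 members tested, 2 fell and none rose, against 2.53% of 14921 genes called, 0.824% lower and 1.7% higher. Differences were negative for 23 of the 32, with a median of -1.09 beside 0.0097 over all genes. In 12 of the 32 every luminal domain lay below every basal tumor and in 1 above, beside 12.8% and 14% of all genes. Among these, Col10a1 met the filter on low values only through the basal tumors. Col20a1, the member above, met it only through the luminal domains, so the separation of both was partly set by the filter. The basal tumors enter both comparisons, so the 2 sets of differences are not independent.

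Col12a1 was at 3772, 2628 and 3961 in the basal tumors and at 523, 396 and 409 in the luminal domains. Both groups were tight and far apart, and the difference of -2.95 ± 0.36 (SE, n = 3 and 3) had an adjusted p of 0.0205 in limma. Col5a2 was at 10102, 3789 and 9928 against 1042, 378 and 436, a difference of -3.70 ± 0.54 with an adjusted p of 0.0258. Col5a2 is encoded at chr1:45374321-45503282, next to Col3a1 and 24614 bases from it.

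Other fibrillar genes had separate groups without a call. Col1a1 was at 8197, 6895 and 9502 against 3794, 1093 and 348, and Col1a2 at 23892, 11586 and 13056 against 8504, 1852 and 725. Their differences were -2.85 ± 0.75 and -2.77 ± 0.80, with adjusted p-values of 0.0944 and 0.113, and in both the first luminal domain was highest. Col11a1 was at 482, 516 and 226 against 13.7, 0 and 8.93, a difference of -6.19 ± 1.32 with an adjusted p of 0.0556. Col5a1 and Col27a1 were also lower in every domain, with adjusted p-values of 0.154 and 0.118. Col3a1, at 26222, 8941 and 38718 against 9751, 1703 and 1430, overlapped through the first domain.

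The short-chain genes had groups apart too. Col8a1 was at 6017, 1742 and 782 against 19.9, 535 and 390, and Col10a1 at 40852, 15.4 and 1394 against 0, 0.959 and 0. Neither was called, with adjusted p-values of 0.173 and 0.0937. Col20a1, a FACIT, was the member higher in every domain, at 7.95, 0 and 0 against 164, 89.6 and 39.6, with a difference of 5.35 ± 1.37 and an adjusted p of 0.0887. Col16a1 and Col15a1 had separate groups and adjusted p-values of 0.11 and 0.227.

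Basement membrane and type VI genes overlapped in this comparison. Col4a1 was at 8863, 3149 and 4933 against 5411, 3031 and 1024, and Col4a2 at 3177, 2184 and 3249 against 3081, 1602 and 1150, with differences of -1.01 and -0.66. Col4a5 and Col4a6 had differences of 0.36 ± 0.74 and 2.24 ± 1.27. Col6a1 was at 653, 501 and 596 against 2610, 197 and 120, so that 1 domain lay above and the others below all basal tumors. Col6a2 was at 271, 395 and 794 against 1843, 191 and 151, with the luminal domains but not the basal tumors in the same order. Col6a3 had a difference of -1.44. Col18a1 was at 1714, 1757 and 6209 against 5280, 4566 and 1750, a difference of 0.39 ± 0.61, and Col7a1 at 594, 1480 and 8787 against 901, 973 and 782.

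Fibroblast markers summed to 21968 to 28284 in the basal tumors and 3102 to 12301 in the luminal domains, where Postn and Vim fell, and smooth muscle markers to 6298 to 57231 against 1430 to 1911, where Acta2, Cnn1 and Tagln fell. Immune markers summed to 25143 to 138684 against 8329 to 14881, without overlap, and endothelial markers to 1427 to 2816 against 1199 to 2329, with overlap. Pericyte markers summed to 2270 to 3821 in the basal tumors and 3724 to 18492 in the luminal domains. The part of these cells in the 2 calls was not tested. Of the luminal urothelial markers, Upk2 rose. Of the processing genes, Bmp1 fell, 1 of 4 propeptide-cleaving genes tested, at 2058, 1294 and 3448 against 235, 369 and 254, a difference of -2.90 ± 0.50 with an adjusted p of 0.0341. Leaving out single libraries moved the 2 calls to between 0 and 3, and the calls over all genes from 377 to between 0 and 467. None was left without the first basal tumor or without the first, the second or the third luminal domain, 1 without the third basal tumor, and 3 without the second.

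Luminal domains and luminal tumors were compared directly in the 8-library fit, a contrast chosen after seeing the data. Of 37 members tested with the filter set for 2 libraries, 30 had a higher level in the 2 domains, with a median difference of 2.48 beside 0.08 over all 16640 genes. None was called. At an unadjusted p under 0.05 in limma there were 11 of the 37 members and 761 of the 16640 genes, a larger share of the members. The smallest adjusted p of a member was 0.998. With only 2 domains in this fit, a difference between the luminal domains and luminal tumors was therefore not detectable for any single member after adjustment.

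The last question was whether the basal-like domains at the bottom of mixed lesions differed from the luminal domains above them. No member and no other gene was called by limma, 0% of 14874 genes. At an unadjusted p under 0.05 there were 3 of the 30 members tested, all higher in basal-like domains, and 757 of all genes, or 5.09%. Differences were positive for 22 of the 30, with a median of 0.55 beside 0.0093 over all genes. Every basal-like domain lay above every luminal domain for 3 members and below for 1, beside 5.62% and 5.14% of all genes.

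Col7a1, the anchoring fibril chain at chr9:108953586-108984875, was at 794, 868 and 697 in the luminal domains and at 1861, 2283 and 2542 in the basal-like domains. Both groups were tight and apart, and the difference of 1.50 ± 0.29 (SE, n = 3 and 3) had an adjusted p of 0.651. Col12a1 was at 523, 402 and 414 against 4010, 1411 and 998, a difference of 2.0 ± 0.54 with an adjusted p of 0.77. Col11a1 was at 12.5, 0 and 8.22 against 537, 18.4 and 29.2, with an adjusted p of 0.935. It needed the basal-like domains to meet the filter on low values. Col5a3 was the member lower in every basal-like domain, at 589, 169 and 234 against 156, 66.5 and 97.6, also with an adjusted p of 0.935.

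**Figure D5:**
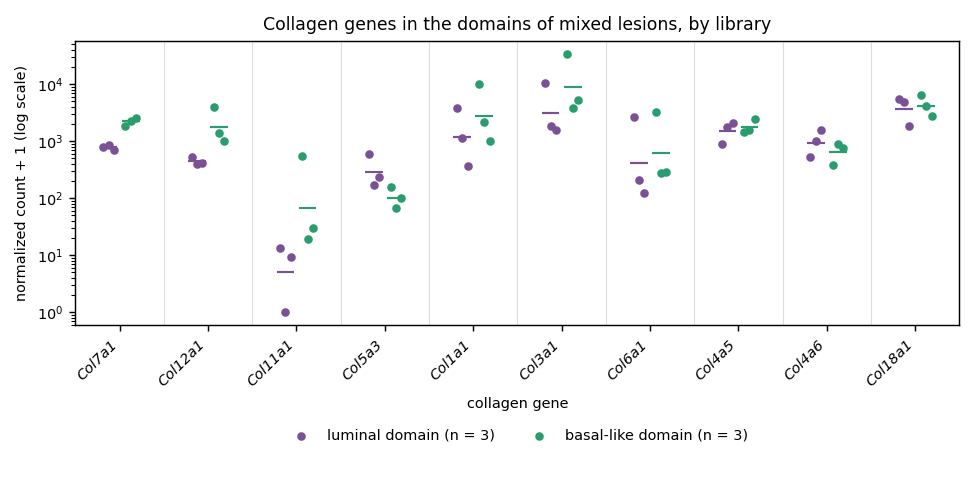
Normalized counts plus 1 (log scale) of 10 collagen genes in 3 luminal and 3 basal-like domains of mixed lesions; points are libraries and bars log-scale means. The basal-like domains lie above the luminal domains for Col7a1, Col12a1 and Col11a1 and below for Col5a3, and 1 basal-like domain is far above the others for Col1a1, Col3a1 and Col6a1.

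The first basal-like domain stood out for stromal chains. Col1a1 was at 3854, 1124 and 357 in the luminal domains and at 10003, 2131 and 1002 in the basal-like domains. Col1a2 was at 8592, 1895 and 741 against 27112, 3799 and 3071. Col3a1 was at 10503, 1858 and 1558 against 34321, 3827 and 5240, and Col6a3 at 1252, 370 and 379 against 6192, 559 and 300. In each case the first library of a group was its highest and the groups overlapped. The collagen share was 0.245% in the first basal-like domain and 0.0635% and 0.0503% in the others, and the fibroblast markers summed to 40224, 9202 and 8288.

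The labels do not tie the basal-like domains to the luminal domains, but the library numbers in the column names are neighbours, 1 luminal with 1 basal-like domain in the order used here. Across 14874 genes, deviations from the group means correlated at 0.363, 0.352 and 0.33 between neighbours and at -0.205 to -0.114 between the other libraries. Deviations cancel out within a group, so the negative values follow from the positive ones and are no separate evidence. Genes are not independent replicates. A fit with these 3 pairs as a block was added after seeing these correlations, so its smaller errors are no test of the pairing. Within the pairs, Col1a1, Col1a2, Col3a1, Col5a2, Col6a1, Col7a1, Col11a1, Col12a1, Col14a1 and Col16a1 were each higher in the basal-like domain 3 times of 3, which is 10 of the 30 members tested beside 17.7% of all genes. Col4a6 and Col5a3 were lower in all 3 pairs, beside 17.6% of all genes. The collagen share was 0.0942%, 0.0441% and 0.0259% in the luminal domains against 0.245%, 0.0635% and 0.0503% in their neighbours, higher each time.

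With the block the errors of the abundant fibrillar chains were smaller, at 0.19 for Col3a1, 0.23 for Col1a2 and 0.23 for Col1a1, where the fit without it gave 0.96, 1.04 and 1.01. The differences themselves, which the block leaves as they are, were 1.50, 1.57 and 1.26, with adjusted p-values of 0.143, 0.143 and 0.155 in limma. No member was called, beside 0.00672% of all genes, or 1 gene. At an unadjusted p under 0.05 there were 9 of the 30 members, beside 12.5% of all genes. Col7a1 and Col12a1 had adjusted p-values of 0.148 and 0.166 in this fit. The fibroblast marker sum, 12415, 3148 and 5701 in the luminal domains, was also higher in each basal-like neighbour. Smooth muscle markers summed to 1921, 1440 and 1571 in the luminal domains and to 7195, 1929 and 2184 in the neighbours, higher each time. Pericyte markers, at 18136, 11005 and 3716 against 13363, 7259 and 2716, and luminal urothelial markers, at 490815, 155056 and 114854 against 120581, 81807 and 33956, were lower each time. General epithelial markers, at 149840, 183699 and 65373 against 78968, 118078 and 47935, were also lower each time. Endothelial, immune and basal urothelial sums did not go 1 way in the 3 pairs. The part of these cells in the collagen differences was not tested.

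The groups overlapped for the basement membrane genes. Col4a1 was at 5424, 3077 and 1039 in the luminal domains against 6237, 2004 and 1614, and Col4a2 at 3131, 1649 and 1182 against 3328, 1610 and 615. Col4a5 was at 906, 1777 and 2113 against 1456, 1585 and 2461, a difference of 0.25 ± 0.40, and Col4a6 at 517, 1013 and 1543 against 379, 904 and 764, a difference of -0.54 ± 0.54. Col18a1 was at 5462, 4784 and 1832 against 6355, 4152 and 2777, a difference of 0.20 ± 0.47. The 95% interval for Col18a1 ran from -0.88 to 1.29. Of the 8 receptors, 4 proteases and 14 modifying enzymes tested in these domains, none passed.

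Col9a1 was listed at 0 in every library used, and Col9a2 and Col19a1 stayed under 10. Col28a1 passed the filter in none of the 4 main comparisons and reached 52.4 in 1 mutant and 107 in 1 basal tumor. Col6a4 was at 335 in 1 luminal domain of the 8-library table and at 0 in all basal and luminal tumors. Col24a1 was at 0, 31.6 and 112 in the basal tumors and at 0 in all luminal tumors and domains there. Col9a3, Col22a1, Col23a1 and Col8a2 were, like it, not tested between luminal and basal tumors. In the sorted mutants Col24a1 was at 42.1 to 510 and Col8a2 at 467 to 1651.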

How the data were processed

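RNA was measured in GFP-sorted urothelial cells and laser-captured tumors with SMART-Seq v4 and Nextera XT libraries. Per the submitters' processing notes the authors used bcl2fastq 2.20, kallisto 0.44.0, sleuth and DESeq2 1.18 with GRCm38 (GRCh38 is also listed). The signal values that the authors deposited are DESeq2-normalized counts per gene; each table was normalized separately, the correction differs between genes, and whole reads could not be recovered, so the depth is unknown. The authors' lists of differential genes hold fold changes and p-values and were not used. The 8 columns of the 1-month BBN table are not used here, since their names do not tie them to untreated or BBN mice.

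The tables of 9, 8, 6 and 6 libraries were each fitted with limma 3.58.1 in R 4.3.3 (empirical Bayes with an intensity trend) on log2(value + 1), for genes with at least 10 normalized counts in as many libraries as the smaller group holds, with Benjamini-Hochberg adjustment over all genes tested. These tests replace a count model, which normalized values do not allow. SE and 95% intervals come from the same fit. The scripts were tested on simulated data.

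The members and gene lists were chosen with earlier results of these data known. The rule for naming genes was values in every library for members called in a comparison, the 5 highest by mean in each, and the main fibrillar, type IV, type VI, short-chain, FACIT and multiplexin chains, although some of these chains, where not called, are given by a range or a difference alone; other members are summarised, and processing genes and markers of stromal and urothelial cells are named where called. Gene positions and coding lengths are from GENCODE M21 for the transcript with the longest coding sequence, and promoters from RefSeq (GRCm38.p6); the authors' annotation is not given in the sources used here. Nothing says whether samples of a group came from separate animals. Alternatives were pseudocounts of 0.5 and 5, no filter or at least 50, fits without trend or robust, upper-quartile and quantile scaling, other sets of libraries, a block on neighbouring library numbers, and leaving out each library.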

Additional observations from a re-analysis of the deposited data

Results flagged for a closer look

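In the 4-day table, 68 groups of values (34 members tested, controls and mutants apart) were searched for a library far from the rest of its group, and 3 were found. Chance alone puts about 1 in 20 groups past this limit. Col14a1 was at 179 in the first control and at 387 to 428 in the other controls. Col4a3 was at 99.4 in the first control, below the 134 to 141 of the others. Col6a5 was at 75.0 in the first mutant, and the other mutants lay between 866 and 2138. Groups of 3 tumor libraries were not searched.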

How the results depend on the processing

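The count of 3 collagen genes called at 4 days became 0 in the smaller table of 3 against 3 libraries and 0 with a term for Y-linked genes. It lay between 1 and 6 when single libraries were left out. Over all genes the count of 467 became 147 and 26, and lay between 129 and 596. The count of 7 in luminal tumors became 1 without a filter on low values and 3 without a trend. It became 2 with only the 6 tumors in the fit and 4 with all 5 luminal libraries as 1 group. Without single libraries it lay between 0 and 16. Over all genes the count of 338 became 52, 142, 142 and 513 in the same order, and 3 to 813 without single libraries. With the 5 luminal libraries as 1 group, calls over all genes thus rose while those of members fell. The count of 2 in luminal domains became 1 without a trend and lay between 0 and 3 without single libraries. Over all genes the count of 377 became 107 and lay between 0 and 467. The count of 0 for basal-like against luminal domains was 0 in every setting run. Over all genes the fit without a trend called 20 in this comparison, 14 higher and 6 lower. The median over the members in that comparison lay between -0.087 and 1.19 without single libraries, so its sign was not stable. The cause of these shifts was not tested, beyond the fewer libraries in some fits. Where a group is left with 2 libraries, they are assumed to vary like the rest. The columns carry none of the labels' replicate numbers. With a replicate block on neighbouring library numbers of the domains, a pairing the labels do not state and that was added after seeing the data, 0 collagen genes and 1 of all genes were called. No other comparison could be paired. Depth in reads is unknown, so genes near 0 cannot be separated from unsampled ones.

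Some differences that were called in no setting changed sign. Quantile scaling gave 0.84 for Col26a1 and 0.44 for Col4a3 in luminal tumors, -0.20 for Col27a1 at 4 days, and -0.14 for Col27a1 and -0.19 for Col4a3 in basal-like domains. The smaller 4-day table gave -0.0753 for Col27a1. At 4 days the term for Y-linked genes gave 0.24 for Col4a6, 1.53 for Col4a4, 0.34 for Col7a1 and 0.065 for Col11a2. That term also gave -0.51 for Col2a1 and -0.21 for Col9a3. Without single libraries at 4 days, Col27a1 lay between -0.35 and 0.26, Col4a5 between -0.012 and 0.18, Col4a4 between -1.08 and 0.33, Col11a2 between -0.56 and 0.093, Col24a1 between -0.042 and 0.85 and Col7a1 between -0.31 and 0.059. In luminal tumors, Col4a4 lay between -1.67 and 1.80, Col4a3 between -0.77 and 0.13, Col4a5 between -1.01 and 0.45 and Col26a1 between -1.47 and 0.82. In luminal domains, Col13a1 lay between -1.44 and 0.18, Col6a5 between -1.34 and 1.70, Col5a3 between -0.29 and 2.57, Col25a1 between -0.98 and 2.59, Col4a5 between -0.25 and 1.21, Col6a2 between -1.37 and 0.43, Col9a3 between -1.70 and 1.01 and Col6a1 between -1.91 and 0.31. In basal-like domains, Col4a2 lay between -0.88 and 0.34, Col4a5 between -0.12 and 0.49, Col6a2 between -1.24 and 1.05, Col8a1 between -0.34 and 2.01, Col9a3 between -1.26 and 2.15, Col27a1 between -0.69 and 1.49, Col6a5 between -0.69 and 2.34, Col18a1 between -0.29 and 0.50, Col4a1 between -0.59 and 0.61, Col6a1 between -0.55 and 1.98, Col4a3 between -0.077 and 0.26 and Col6a3 between -0.45 and 1.73.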

Other observations

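The type VI chains were set against each other in the sorted cells and in the captured tissue. Per kilobase of coding sequence, Col6a3 was at a median of 0.0133 times Col6a1 over the 9 libraries of sorted cells, with a range of 0.00698 to 0.0215. In the 8 libraries of basal tumors, luminal tumors and luminal domains the median was 0.484, with a range of 0.106 to 1.86. Each ratio is taken within a library, but the tables come from different collection methods and cells, which cannot be told apart here, and no test was run. The correction of the values also differs between genes, and each table was normalized separately, so the ratios carry these differences too. The ratio of Col6a2 to Col6a1 was 0.605 at the median in sorted cells and 0.738 in the 8 libraries.

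Col10a1 was present in the first basal tumor at 38569 and in the third at 1331, but at 14.9 in the second. Col10a1 was under 16 in all 9 libraries of sorted cells. In the basal tumors Col7a1 also spread widely, from 466 to 6968. Col4a6 was at 1384 in the second basal tumor and at 30.0 and 146 in the others, and its neighbour Col4a5 at 3591 against 775 and 471.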
